A study of Mus musculus with 6 samples.

Results

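Il1rn, Lcn2, Socs3 and Hamp2 were the 4 genes described here, chosen by symbol from a table of 389 genes of mouse liver. Liver RNA was sequenced from whole-body Usp28 knockout mice (KO, 3 libraries) and from Usp28 wildtype mice (WT, 3 libraries). Both genotypes were put on a diet without methionine and choline (MCD) at 8 weeks of age and kept on it for 4 weeks, which produces steatohepatitis, and no animals on another diet were analysed here. The Usp28 protein strips ubiquitin from its substrates, and in a whole-body knockout it is lost from liver cells and immune cells alike. Strain and sex were not given in the sources used here. Nothing in the labels ties the 3 libraries of a genotype to separate animals. The p-values below therefore reflect the spread between libraries, which may be partly technical.

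The acute phase response is the change in liver output that follows inflammation. Interleukin-1 and interleukin-6 reach hepatocytes and act largely through the transcription factors NF-kB, C/EBP and STAT3, and the same signals switch on their own brakes. Il1rn encodes the interleukin-1 receptor antagonist, which occupies the receptor without activating it. Socs3 encodes a suppressor of cytokine signalling that blocks JAK kinases at the interleukin-6 receptor. Lcn2 encodes lipocalin 2, a secreted protein that binds bacterial iron carriers and is made by injured hepatocytes and by neutrophils. Hamp2 is the neighbour and close copy of Hamp, which encodes hepcidin, the liver hormone that limits iron export and is driven by bone morphogenetic proteins (BMP) and by STAT3.

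In KO liver, transcripts of Il1rn were 7.65-fold, of Lcn2 5.81-fold and of Socs3 2.30-fold lower, and those of Hamp2 were 5.14-fold higher. All 4 passed an adjusted p of 0.05 in edgeR's quasi-likelihood test, which 99.7% of the 389 genes did, because the authors had put genes into this table for their difference between KO and WT. In the authors' deposited table no absolute log2 fold change was below 1.004 and no FDR above 0.0494. The calls and directions of the 4 genes against 0 therefore follow in part from how the table was made, and what can be described is their size, their spread between libraries and their pattern. The authors' p-values and FDR imply that 16198 genes were tested. With edgeR p-values adjusted over that number, 1.29% of the 389 genes passed, and Il1rn was among them (adjusted p = 0.0317). Lcn2, Socs3 and Hamp2 did not pass (adjusted p = 0.217, 0.483 and 0.243). DESeq2 p-values adjusted in the same way were passed by 39.6% of the 389 genes, among them Il1rn (adjusted p = 3.19e-11), Lcn2 (0.000357) and Hamp2 (0.000752), but not Socs3 (0.202).

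Depth, recovered from counts and FPKM (fragments per kilobase of transcript, scaled to library depth) of the same genes, was between 20350000 and 24160000 reads per library. Usp28 had no row in the table, and knockout could not be seen from its own transcript. None of the 8 hepatocyte markers had a row either, and the tissue label was not checked. The 389 genes took between 5.45% and 8.81% of the reads in WT libraries and between 3.73% and 3.77% in KO libraries, with WT replicate 3 the lowest of the WT libraries.

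The promoters show what Hamp2 and Socs3 share in sequence and where Hamp2 parts from Hamp. They are printed 5′ to 3′ on the strand of the gene, as the 250 bases that end just before the transcription start annotated by RefSeq in GRCm38.p6, with matches to the motifs searched in capitals. The windows are chr7:30924182-30924431 (minus strand) for Hamp2, chr7:30944030-30944279 (minus strand) for Hamp, chr11:117969367-117969616 (minus strand) for Socs3 and chr2:32387740-32387989 (minus strand) for Lcn2.
Hamp2: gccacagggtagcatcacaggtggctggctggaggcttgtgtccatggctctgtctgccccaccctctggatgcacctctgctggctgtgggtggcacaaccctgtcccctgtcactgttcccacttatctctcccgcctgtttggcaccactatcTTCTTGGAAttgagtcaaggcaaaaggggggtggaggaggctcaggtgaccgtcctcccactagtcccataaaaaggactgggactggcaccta
Hamp: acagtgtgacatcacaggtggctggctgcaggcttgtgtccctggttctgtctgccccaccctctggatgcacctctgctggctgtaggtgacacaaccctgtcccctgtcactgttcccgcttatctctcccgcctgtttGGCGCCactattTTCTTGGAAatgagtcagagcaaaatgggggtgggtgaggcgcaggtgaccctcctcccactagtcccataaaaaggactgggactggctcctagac
Socs3: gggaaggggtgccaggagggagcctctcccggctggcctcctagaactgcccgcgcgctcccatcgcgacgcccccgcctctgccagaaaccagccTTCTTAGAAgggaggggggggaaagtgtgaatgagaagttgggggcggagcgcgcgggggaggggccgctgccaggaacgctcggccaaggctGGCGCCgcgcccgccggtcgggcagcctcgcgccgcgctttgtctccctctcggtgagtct
Lcn2: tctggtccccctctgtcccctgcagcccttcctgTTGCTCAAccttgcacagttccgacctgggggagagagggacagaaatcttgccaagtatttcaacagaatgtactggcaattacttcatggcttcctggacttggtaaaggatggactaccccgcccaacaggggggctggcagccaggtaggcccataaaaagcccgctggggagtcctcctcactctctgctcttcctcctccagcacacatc

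Both strands were searched for a STAT motif (TTCNNNGAA), a C/EBP motif (TTGCNNAA), a BMP-responsive motif (GGCGCC), the NF-kB consensus and the direct repeat bound by PPAR. The STAT motif was found in Hamp2 (TTCTTGGAA, 94 to 86 bases before the start), in Hamp (TTCTTGGAA, 97 to 89 bases before it) and in Socs3 (TTCTTAGAA, 154 to 146 bases before it). It occurs in 7.01% of the 32817 RefSeq promoter windows of this length and in 4.85% of the 371 windows of listed genes. The BMP-responsive motif was found in Hamp (109 to 104 bases before the start) and in Socs3 (61 to 56 bases before it), but these letters were not in the Hamp2 window. It occurs in 9.59% of all windows and in 15.4% of those of listed genes. The Socs3 window is 71.6% G and C, against 58.4% for Hamp2 and 57.2% for Hamp. In Lcn2 the C/EBP motif was found (TTGCTCAA, 216 to 209 bases before the start), which occurs in 9.57% of windows. The 3 RefSeq starts of Il1rn had no match to any of the motifs in their windows. The NF-kB consensus, present in 5.0% of windows, and the PPAR repeat, present in 0.0335%, matched none of the 4 genes. Socs3, which was lower in KO, and Hamp2, which was higher, thus both hold the STAT letters. A match or its absence within 250 bases is a description of these letters only.

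Il1rn (ENSMUSG00000026981, chromosome 2, 24336853 to 24351494, plus strand) had the largest difference of the 4 genes with recovered depth as library size and all libraries, while that of Hamp2 was larger under other scalings and without WT replicate 3. It stood at 19.89, 16.01 and 27.22 FPKM in WT replicates 1, 2 and 3. In KO replicates 1, 2 and 3 the values were 2.04, 2.86 and 2.30 FPKM. The groups were far apart, since the lowest WT library was 5.60 times the highest KO library, and no WT library stood away from the others. Mean FPKM was 21.0 ± 5.69 over the WT libraries and 2.40 ± 0.419 over the KO libraries (SD, n = 3 each), and edgeR gave a log2 fold change of -2.94 with an SE of 0.35 and an adjusted p of 0.000762. Between 515 and 691 reads lay behind each WT value and between 56 and 102 behind each KO value. On counts scaled to recovered depth, not FPKM, the coefficient of variation between KO libraries was 26.9%, against 11.3% from counting alone. By p-value Il1rn ranked 2 among the 389 genes, and by absolute log2 fold change it ranked 25.

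The size of the Il1rn difference depended a little on the unit. The authors' deposited table gave a log2 fold change of -3.13 from mean FPKM. Il1rn has 6 annotated transcripts, with 1 RefSeq start far upstream of the others. Reads per FPKM, which follow the transcript length assigned to a gene in a library once depth is divided out, differed between libraries for Il1rn. Relative to the WT mean, this length measure was 1.04, 1.01 and 0.946 in WT replicates 1, 2 and 3. In KO replicates 1, 2 and 3 the values were 0.998, 1.22 and 1.15. KO replicate 1 lay among the WT libraries, so the groups overlapped. The highest of these values was 1.29 times the lowest, the rank of Il1rn by this range being 14 among 237 well-counted genes. For Lcn2, Socs3 and Hamp2 the highest value was at most 1.005 times the lowest, so for them counts and FPKM carry the same difference. Values per transcript were not analysed here.

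Lcn2 (ENSMUSG00000026822, chromosome 2, 32384633 to 32388252, minus strand) had the highest coefficient of variation within WT of the 4 genes. It stood at 28.76, 33.89 and 119.67 FPKM in WT replicates 1, 2 and 3. In KO replicates 1, 2 and 3 the values were 12.37, 10.96 and 8.02 FPKM. WT replicate 3 was far above the other WT libraries, and the lowest WT library was still 2.32 times the highest KO library. Mean FPKM was 60.8 ± 51.1 over the WT libraries and 10.4 ± 2.22 over the KO libraries (SD, n = 3 each), and edgeR gave a log2 fold change of -2.54 with an SE of 0.54 and an adjusted p of 0.00521. Without WT replicate 3 the fold change moved by more than 1.5 times, to a log2 value of -1.58 ± 0.26 (SE, edgeR adjusted p = 0.000925), and with the listed counts as library size it did not pass (-1.80, edgeR adjusted p = 0.0798). The coefficient of variation in WT was 84.0% (76.7% for Hamp2), against 2.92% from counting alone (536 to 2228 reads), and 21.3% in KO (160 to 236 reads).

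Socs3 (ENSMUSG00000053113, chromosome 11, 117966079 to 117970047, minus strand) had the smallest difference and the lowest level of the 4 genes. It stood at 5.71, 2.89 and 3.37 FPKM in WT replicates 1, 2 and 3. In KO replicates 1, 2 and 3 the values were 1.47, 1.98 and 1.74 FPKM. The groups did not overlap, but the lowest WT library was only 1.46 times the highest KO library, and WT replicate 1 stood above the other WT libraries. Mean FPKM was 3.99 ± 1.51 over the WT libraries and 1.73 ± 0.255 over the KO libraries (SD, n = 3 each), and edgeR gave a log2 fold change of -1.20 with an SE of 0.35 and an adjusted p of 0.0116. Without WT replicate 1 it did not pass (log2 fold change -0.85, edgeR adjusted p = 0.0572), and the value fell short of the threshold under every scaling that assumes most listed genes unchanged (-0.62 with TMM factors, edgeR adjusted p = 0.113). In KO libraries the coefficient of variation of Socs3 was 15.0%, close to the 10.2% that counting alone gives at 78 to 112 reads.

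Hamp2 (ENSMUSG00000056978, chromosome 7, 30922372 to 30924681, minus strand) was the member that was higher in KO. It stood at 30.98, 20.50 and 85.86 FPKM in WT replicates 1, 2 and 3. In KO replicates 1, 2 and 3 the values were 294.73, 167.28 and 243.90 FPKM. WT replicate 3 was nearest to the KO libraries, of which the lowest was 1.95 times its value. Mean FPKM was 45.8 ± 35.1 over the WT libraries and 235 ± 64.2 over the KO libraries (SD, n = 3 each), and edgeR gave a log2 fold change of 2.36 with an SE of 0.52 and an adjusted p of 0.00584. Leaving out WT replicate 3 raised it to 3.19 with an SE of 0.33 (edgeR adjusted p = 0.000179), a fold change more than 1.5 times as large. Other scalings raised it as well, to 3.04 with TMM factors and 3.12 with the listed counts as library size (edgeR adjusted p = 0.00130 and 0.0127), where Il1rn was at -2.35 and -2.03. The reads ranged from 208 to 734 in WT and from 1555 to 2582 in KO.

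Hamp2 values are uncertain, first because its reads could be shared with Hamp, which lies 17686 bases away (chromosome 7, 30942368 to 30944032). The main annotated transcripts, of 420 bases for Hamp2 and 410 for Hamp, were 92.4% identical in a global alignment, and 60 of the 371 stretches of 50 bases in the Hamp2 transcript (16.2%) also occurred unchanged in Hamp. The promoter windows printed above were 89.7% identical. Hamp had no row in the table, so how its level moved is not reported. A further limit is the lincRNA gene Gm44662, which overlaps Hamp2 on the opposite strand over 2310 bases, the whole length of the gene. Whether the counting used strand is not stated in these sources, so reads of Gm44662 could also have been counted for Hamp2.

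**Figure D1:**
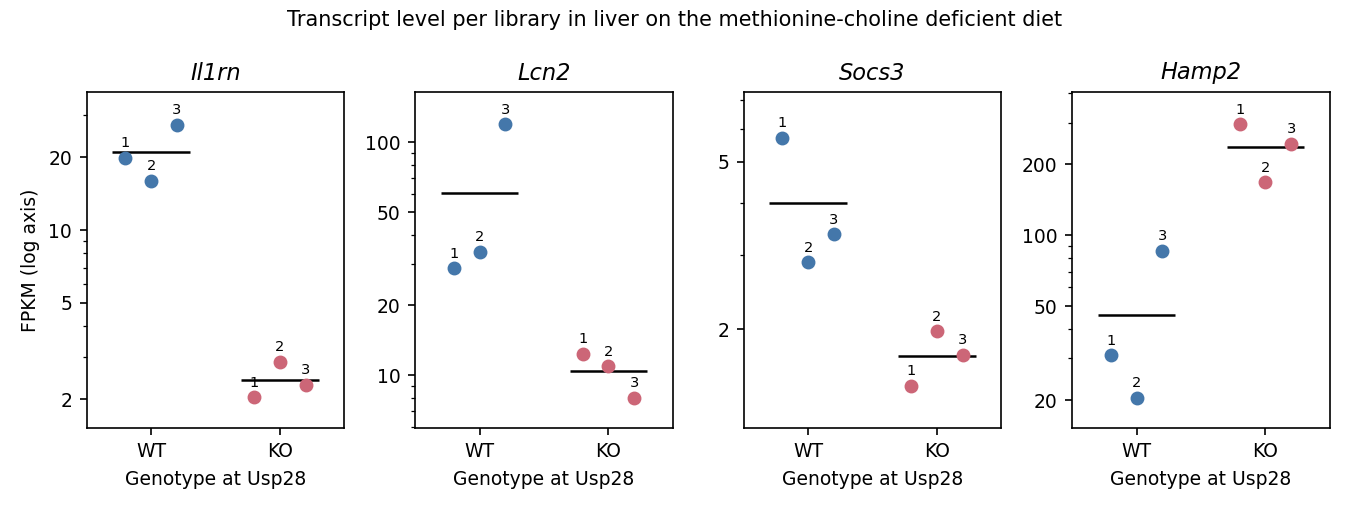
FPKM (log axis) of Il1rn, Lcn2, Socs3 and Hamp2 in each of the 3 WT and 3 KO libraries (points, numbered by replicate), with the mean of each group as a line. No WT point overlaps the KO points of the same gene, and WT replicate 3 stands apart at 119.67 FPKM for Lcn2 and at 85.86 FPKM for Hamp2.

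The KO and WT libraries stood apart without overlap in all 4 genes, as in 94.3% of the 389 genes (scaled to recovered depth). An exact two-sided permutation test on a single gene gave p = 0.10 for each of the 4, the smallest value that 3 against 3 libraries allow. The WT libraries took different orders by gene. On the scale of log2(CPM + 1), CPM being counts scaled to recovered depth, with the KO mean as 0, Il1rn was 2.65, 2.30 and 2.95 higher in WT replicates 1, 2 and 3. Lcn2 was 1.39, 1.62 and 3.41 higher in the same libraries, and Socs3 was 1.53, 0.64 and 0.83 higher. Hamp2 was at -2.80, -3.34 and -1.39. WT replicate 3 was thus the farthest from KO for Il1rn and Lcn2, the nearest for Hamp2, and neither for Socs3. Over the 6 libraries, which include the genotype difference, Pearson's r on this scale was 0.89 for Il1rn with Lcn2, 0.89 for Il1rn with Socs3 and 0.63 for Lcn2 with Socs3, and -0.84, -0.56 and -0.81 for Hamp2 with Il1rn, Lcn2 and Socs3.

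**Figure D2:**
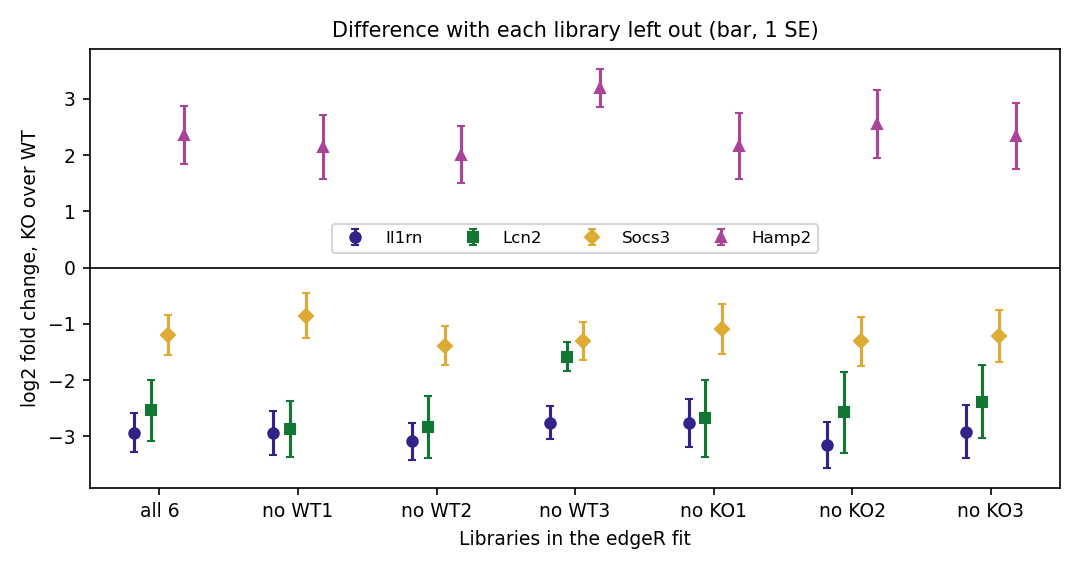
log2 fold change of KO over WT for the 4 genes, with all 6 libraries and with each library left out in turn (points, edgeR; bars, 1 SE). Lcn2 moves from -2.54 to -1.58 and Hamp2 from 2.36 to 3.19 without WT replicate 3, and Il1rn stays between -3.16 and -2.76 in all 6 of these fits.

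FPKM is scaled to transcript length, so levels can be set side by side within a library, but only roughly between different genes. Whether FPKM allowed for the fewer fragments a short transcript yields, such as the 420 bases of Hamp2, was not checked. In WT replicates 1, 2 and 3 the FPKM of Hamp2 was 1.08, 0.605 and 0.717 times that of Lcn2, so the order of the pair in FPKM was not the same in every WT library. In KO replicates 1, 2 and 3 it was 23.8, 15.3 and 30.4 times that of Lcn2. Lcn2 exceeded Il1rn in every library, by 1.45 to 4.40 times in WT and 3.49 to 6.06 times in KO, and these ranges overlapped. Il1rn was 3.48, 5.54 and 8.08 times Socs3 in WT replicates 1, 2 and 3 and 1.39, 1.44 and 1.32 times Socs3 in the KO replicates. Il1rn and Socs3 lay close together in KO, with the lowest Il1rn value (2.04 FPKM) just above the highest Socs3 value (1.98 FPKM). The order of mean FPKM was Lcn2, Hamp2, Il1rn and Socs3 in WT, where the top pair differed by less than their spread, and Hamp2, Lcn2, Il1rn and Socs3 in KO.

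In the list of 32 acute phase genes, 7 had a row. Of these, 6 were lower in KO (59.9% of all 389 genes were called lower) and Hamp2 was higher (39.8% were called higher). A row, in this and the lists below, means that the authors had put the gene into the table, as they had 389 of an implied 16198. All 7 genes passed edgeR's test, and their median log2 fold change was -2.17, against -1.10 for all 389 genes. The authors' table holds no absolute log2 fold change below 1.004, so such medians depend largely on the share of lower genes. They are not a typical size of change. Besides Il1rn and Lcn2, the lower genes were Mt2 and Mt1, which encode metal-binding metallothioneins, Cd14, which encodes a co-receptor for bacterial endotoxin, and Lrg1, which encodes a secreted leucine-rich glycoprotein. Mt2 had a log2 fold change of -3.08 ± 0.38 and Mt1 one of -2.17 ± 0.34 (SE, edgeR adjusted p = 0.000762 and 0.00239). Lrg1 stood at 346.09, 343.24 and 177.51 FPKM in WT replicates 1, 2 and 3 and at 129.78, 138.50 and 163.49 FPKM in the KO replicates, so WT replicate 3 lay just above the KO libraries (log2 fold change -1.01 ± 0.35, SE, edgeR adjusted p = 0.0185). Leaving out WT replicate 1 or 2 or KO replicate 1 or 2 ended the Lrg1 call (edgeR adjusted p from 0.0592 to 0.0663), as did TMM and RLE factors (0.281 and 0.366), and with the listed counts as library size the difference was 0.05 in the other direction. Cd14 passed with all libraries (log2 fold change -1.65 ± 0.60, SE, edgeR adjusted p = 0.0218) but not without WT replicate 3 (-0.43, edgeR adjusted p = 0.157), without any 1 of the KO replicates (0.0533 to 0.0703), with TMM factors (0.118) or with limma on log2(FPKM + 1) (0.109). Without WT replicate 3, 5 genes of the list were called lower (216 of all 389 genes). The median of the list was then -1.58, which is the value of Lcn2 itself, against -0.998 for all 389 genes. Serum amyloid A genes, Hp, Orm1 and the fibrinogen genes, the classical abundant acute phase products, had no row and are not analysed here.

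Among 38 genes of interleukin-6, gp130 and STAT3 signalling, Socs3 and Cish had a row. Cish encodes another member of the SOCS family, known as a feedback inhibitor of STAT5. It went the other way from Socs3, at 3.63, 3.39 and 4.72 FPKM in WT replicates 1, 2 and 3 and 3.94, 9.97 and 11.43 FPKM in the KO replicates. KO replicate 1 lay within the WT range, so the groups overlapped. Cish had a log2 fold change of 1.11 with an SE of 0.40 (edgeR adjusted p = 0.0217), and leaving out WT replicate 1 or 2 or KO replicate 2 or 3 ended the call (edgeR adjusted p from 0.0529 to 0.0944).

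Among 34 genes of the interleukin-1 family and its signalling, Il1rn and Nfkbiz had a row and both were lower in KO. Nfkbiz encodes a nuclear IkB protein that is induced by interleukin-1 and is needed for some NF-kB targets, Lcn2 being one of those known. It stood at 2.84, 2.56 and 2.48 FPKM in WT replicates 1, 2 and 3 and at 1.10, 1.06 and 0.97 FPKM in the KO replicates, a tight pattern without the WT replicate 3 excess of Lcn2. edgeR gave it a log2 fold change of -1.33 with an SE of 0.30 and an adjusted p of 0.00587. Nfkbiz still passed with TMM factors (-0.75, edgeR adjusted p = 0.0396). It did not pass with RLE factors or with the listed counts as library size (-0.67 and -0.36, edgeR adjusted p = 0.0747 and 0.471). Nor did it with DESeq2's own size factors (-0.68, DESeq2 adjusted p = 0.114).

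Of 38 genes of hepcidin control and iron handling, 5 had a row, with Hamp2 and Inhba higher and Id1, Fst and Inhbe lower in KO. All 5 passed edgeR's test, as did 99.7% of the 389 genes. Id1, a direct target of BMP signalling that often moves with Hamp, stood at 42.16, 45.95 and 66.99 FPKM in WT replicates 1, 2 and 3 and at 15.87, 25.81 and 22.40 FPKM in the KO replicates. edgeR gave it a log2 fold change of -1.28 with an SE of 0.33 and an adjusted p of 0.00844, opposite in sign to that of Hamp2. Inhba, which encodes an activin subunit, had a log2 fold change of 2.27 ± 0.40, and Fst, which encodes the activin-binding protein follistatin, one of -1.88 ± 0.52 (SE, edgeR adjusted p = 0.00290 and 0.0103). Inhba stayed at or below 2.36 FPKM and Fst at or below 1.58 FPKM in every library. Inhbe encodes a subunit made mainly in liver, and edgeR gave a log2 fold change of -1.40 with an SE of 0.38 and an adjusted p of 0.00931. With TMM factors Id1 (-0.68, edgeR adjusted p = 0.0626) and Inhbe (-0.79, 0.0824) did not pass, and with RLE factors Id1, Inhbe and Fst did not (edgeR adjusted p = 0.130, 0.124 and 0.0561).

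Of 17 genes listed with lipocalin 2, its receptors and related carriers, Lcn2, Ptgds and Fabp1 had a row, and the receptor gene Slc22a17 did not. Ptgds, a lipocalin that makes prostaglandin D, was low in every library, at 0.13 to 0.24 FPKM in WT and 0.49 to 2.65 FPKM in KO (log2 fold change 3.23 ± 0.79, SE, edgeR adjusted p = 0.00775). Fabp1 encodes the liver fatty acid-binding protein, and edgeR gave a log2 fold change of -1.12 with an SE of 0.44 and an adjusted p of 0.0305. It did not pass without WT replicate 1 (-0.57, edgeR adjusted p = 0.202), without any 1 of the KO replicates (0.0784 to 0.0917), with TMM factors (0.273), with limma on log2(FPKM + 1) (0.0582) or with the replicate block (0.0845).

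**Figure D3:**
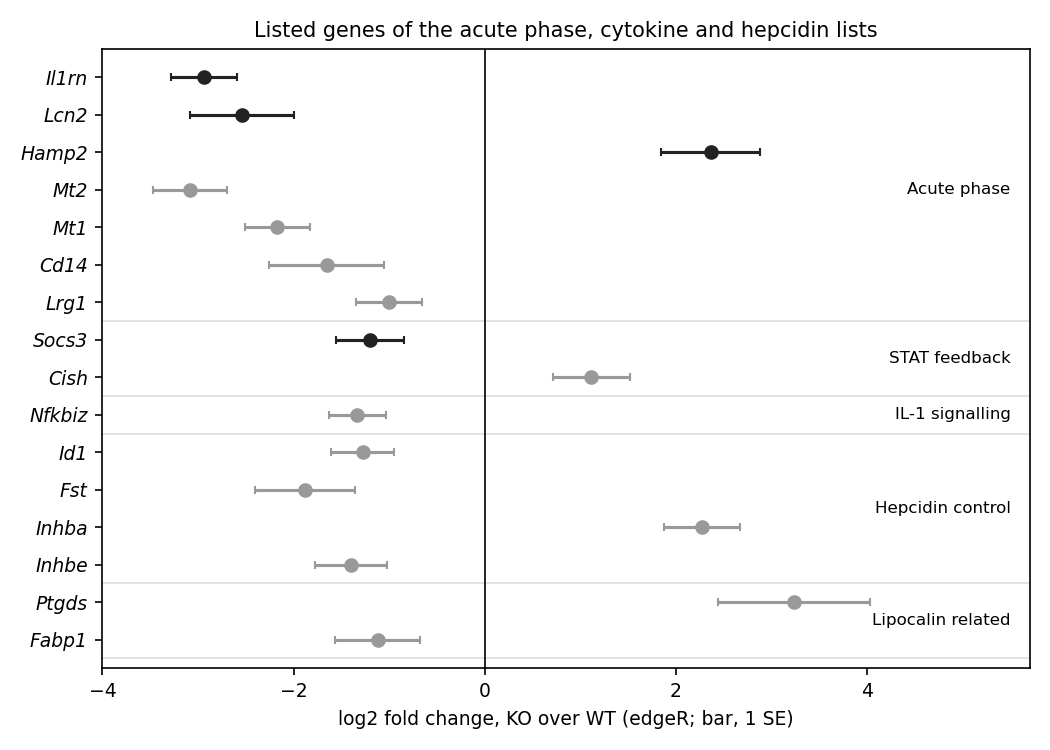
log2 fold change of KO over WT (points, edgeR; bars, 1 SE) for the genes with a row from the acute phase, cytokine, hepcidin and lipocalin lists, with Il1rn, Lcn2, Socs3 and Hamp2 in black. Hamp2, Cish, Inhba and Ptgds lie above 0, and the other genes drawn lie below it.

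Cells other than hepatocytes can hold these transcripts, and in bulk tissue fewer cells of a type and less RNA per cell cannot be told apart. Of the 16 neutrophil markers only Lcn2 itself had a row, and none of the Kupffer cell, T and NK cell, B cell, endothelial, stellate or cholangiocyte markers did. Of the 16 markers of monocytes and recruited macrophages, 6 (Mmp12, Gpnmb, Lgals3, Cd14, Itgax and Itgam) had a row, and none of them was at 0 in any library. Their summed level was 67.1, 30.8 and 168 FPKM in WT replicates 1, 2 and 3 and 28.9, 23.5 and 20.7 FPKM in the KO replicates. Like Lcn2 and Il1rn, the sum was highest in WT replicate 3, and its lowest WT value was close to the KO values. The markers with the highest FPKM weigh most in this sum, so single markers can differ from it. Cd14 is also in the acute phase list above. WT replicate 2 was 1.07 times KO replicate 1 for the sum. In FPKM it was 7.85 times KO replicate 1 for Il1rn, 2.74 for Lcn2, 1.97 for Socs3 and 0.0696 for Hamp2. All 6 markers were called lower with all libraries, as were 59.9% of the 389 genes. Without WT replicate 3 it was 4 of the 6 (216 of the 389 genes), and without KO replicate 2 it was 3 (179 of the 389). With TMM or RLE factors it was 2 (94 or 80 of the 389), and with the listed counts as library size it was 0 (27 of the 389). The part of these cells in the levels of the 4 genes was not tested.

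**Figure D4:**
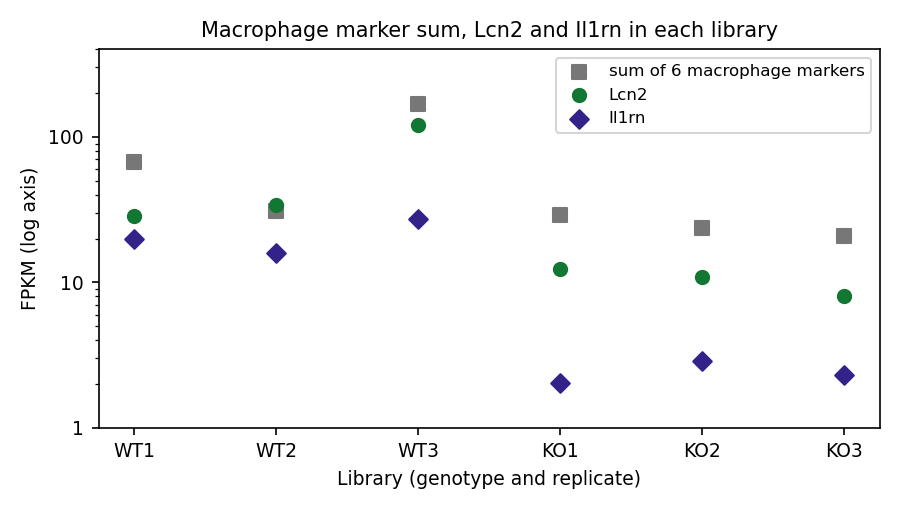
FPKM (log axis) of Lcn2, of Il1rn and of the sum over 6 macrophage markers in each library. All 3 are highest in WT replicate 3, where the sum is 168, Lcn2 119.67 and Il1rn 27.22 FPKM.

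The genes whose pattern over the 6 libraries was most like that of each member were found by Pearson's r on log2(CPM + 1). These points share the genotype difference that put every gene into the table, so high values are common: 40, 18, 4 and 48 of the 388 other genes had an r above 0.95 with Il1rn, Lcn2, Socs3 and Hamp2. Nearest to Il1rn were Sel1l3, Igdcc4 and Sec23a (r = 0.998, 0.994 and 0.994). Nearest to Lcn2 were Tmem154, Ly6d and Epop (r = 0.985, 0.980 and 0.979), whose log2 fold changes were -2.61, -2.94 and -1.56. Igdcc4 and Tmem154 did not pass with limma on log2(FPKM + 1) (-0.19 and -0.49, limma adjusted p = 0.306 and 0.0897). The other genes named in this paragraph did. Nearest to Socs3 were Lpin2, Tmed5 and Spc25 (r = 0.973, 0.972 and 0.964), of which Tmed5 and Spc25 had log2 fold changes of -1.39 and -1.10. Among the nearest to Hamp2 were Serpina6, which encodes corticosteroid-binding globulin, and Hhex, which encodes a homeobox factor of liver (r = 0.995 and 0.991), with log2 fold changes of 1.91 and 2.21. Once each genotype's mean was removed, r of these genes with their member lay between 0.89 and 0.98, but the genes were chosen for their likeness over the same libraries.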

How the data were processed

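Per the labels' protocols, liver RNA was isolated with Trizol, and the library kit was NEBNext Ultra RNA. The tools named are HISAT2, RSEM, StringTie 1.3.1 and fastp 0.18.0, per the submitters' processing notes, with neither their order nor a genome build. Counts (raw reads) and FPKM were deposited for each library in a table of 389 genes, beside group means, a log2 fold change and a p-value with its FDR by the authors, per the file headers. The 4 genes and all lists were chosen with earlier results of these data known.

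Depth per library was recovered as the median of count over FPKM and transcript length, from 38 to 51 genes with 1 annotated transcript (GENCODE M21), 50 or more counts and 1 or more FPKM. It lay between 20350000 and 24160000 reads. Counts of all 389 genes were tested with edgeR 4.0.16 (R 4.3.3, quasi-likelihood, library size set to recovered depth, neither scaled further nor filtered) and adjusted by Benjamini-Hochberg over the 389 genes. Each SE was taken from the F statistic, as absolute log2 fold change over its square root. The adjustment over 16198 genes treats genes without a row as unchanged. DESeq2 1.42.0, limma 3.58.1 on log2(FPKM + 1) and log2(FPKM + 0.1), other scalings, a filter (10 counts in 3 libraries), each library left out and a replicate block were alternatives. The fits were also run on simulated data, in which many genes were unchanged and all had the same spread. This differs from the table here, and no result of it is used. Besides the 4 genes, the text names all genes of the fixed lists that had a row (up to 8 per list), and the 3 genes most like each member by Pearson's r, of which 1 is not reported here. 388 of the 389 IDs matched GENCODE M21 (GRCm38), and all 4 members matched the RefSeq promoters. Sequences were compared with Biopython 1.88.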

Additional observations from a re-analysis of the deposited data

How the results depend on the processing

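Il1rn kept its direction and its side of the threshold under all 16 alternatives (log2 fold change from -3.16 to -2.03, adjusted p from 7.65e-13 to 0.0317), Hamp2 under 15, Lcn2 under 14 and Socs3 under 10, and none of the 4 changed direction. The exceptions were the adjustment over 16198 genes for Lcn2, Socs3 and Hamp2 (log2 fold change -2.54, -1.20 and 2.36, edgeR adjusted p = 0.217, 0.483 and 0.243), and the listed counts as library size for Lcn2 (-1.80, edgeR adjusted p = 0.0798). For Socs3 they were TMM factors (-0.62, edgeR adjusted p = 0.113), RLE factors (-0.51, 0.174), the listed counts as library size (-0.21, 0.719), DESeq2's own size factors (-0.51, 0.240) and leaving out WT replicate 1 (-0.85, 0.0572). These scalings assume that most listed genes are unchanged, or that their sum is, and moved the median gene by 0.60 (TMM), 0.65 (RLE and DESeq2) and 0.93 (listed counts) on the log2 scale. With 1 library left out, log2 fold changes ranged from -3.16 to -2.76 for Il1rn, -2.88 to -1.58 for Lcn2, -1.39 to -0.85 for Socs3 and 2.01 to 3.19 for Hamp2. The number of genes past the threshold was 388 (155 higher, 233 lower), and 250 with TMM factors (156 and 94), 236 with RLE factors (156 and 80), 239 with DESeq2's own factors (156 and 83), 181 with the listed counts as library size (154 and 27) and 5 with the adjustment over 16198 genes. It ranged from 279 to 372 with 1 library left out. Of 463 values for the 29 other genes under the naming rule, 330 kept their call, 132 lost it and 1 reversed (Lrg1, 0.051 with the listed counts as library size). Same-numbered WT and KO libraries were not taken as pairs (r of their deviations = 0.065, 0.108 and -0.030 over the 389 genes), and WT replicate 2 correlated best with KO replicate 3 (0.114). With the replicate number as a block the count was 382, and the log2 fold changes were -2.94 for Il1rn, -2.21 for Lcn2, -1.15 for Socs3 and 2.60 for Hamp2, all still past the threshold. Depth limited Il1rn and Socs3 most, at 56 to 112 reads per KO library.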
